A study of Mus musculus with 8 samples.

Results

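The genes described are Fbn1, Fndc1, Cilp, Samd11, Gfpt2, Dpt, Pi16, Mfap5 and Clec3b, 9 genes out of 18040 listed in at least 1 of the expression tables of mouse adipose tissue macrophages and 16136 listed in both. They were chosen by their measured values: the choice was made around genes whose rise in adhesion-related macrophages (ARMs) over stromal macrophages (SMs) was larger on normal diet (ND) than on high-fat diet (HFD). Their values in those comparisons are therefore a description. Where the number of them that met a call is given, it describes the choice and is not read as a test of it. All 9 genes were listed in both tables and passed the low-count filter of both.

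The study sorted CD45+CD11b+F4/80+ cells from epididymal white adipose tissue of wild-type C57BL/6J males, and its tables call the SMs NARMs. ARMs came from the floating adipocyte layer of digested tissue and SMs from the stromal vascular fraction. Each of the 4 groups (ND SM, ND ARM, HFD SM and HFD ARM) had 2 RNA-seq libraries, made from pools of 10 mice on ND and of 6 mice on HFD. Feeding with ND or HFD began at 6 weeks of age, and HFD was given for 8 weeks. Library totals ran from 14508824 to 19040133 estimated counts. Nothing in the labels says that 2 libraries of a group differ by more than their pool of mice, so a p-value here measures the spread between these libraries.

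Fibroblasts of adipose tissue, among them the progenitors of adipocytes, build the matrix that surrounds the fat cells. Fibrillin-1 assembles into microfibrils, which carry elastin and hold latent TGF-beta, and dermatopontin helps collagen and decorin assemble. Pi16 and Dpt mark fibroblasts found in many tissues, including a progenitor population of the fat depot's interstitium.

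The working name for these genes calls them fibroblast matrix genes raised in ARMs on ND. By their known products, 5 of the 9 encode matrix proteins (Fbn1, Mfap5, Dpt, Cilp and Fndc1). Clec3b and Pi16 encode 2 other secreted or surface proteins, and Gfpt2 and Samd11 encode 2 proteins that act inside the cell, so the word matrix does not cover the whole group. In the ND libraries all 9 had a higher level in both ARM libraries than in both SM libraries, beside 21.2% of genes tested. The genes were chosen on this contrast, so that count describes the choice. The cells were sorted as macrophages, and the summed level of 12 macrophage markers was 28199 to 33785 TPM in the 8 libraries. The summed level of the 9 genes was 49.9 to 168 TPM. TPM is a level scaled for transcript length and library total, and is used wherever the levels of different genes are compared.

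Fbn1 (Entrez 14118, chr2:125300594-125506485 in GRCm38.p6) encodes fibrillin-1, the backbone of the microfibril. Its level was 5.13 and 5.58 TPM in the ND SM libraries, 9.46 and 13.6 TPM in ND ARM, 11.3 and 13.1 TPM in HFD SM, and 9.99 and 11.1 TPM in HFD ARM. The ND SM libraries were the low ones, and the other 6 lay close together whatever the diet. Mfap5 (Entrez 50530, chr6:122513584-122529290) encodes a small glycoprotein bound to fibrillin. Its level was 3.73 and 5.4 TPM in ND SM, 7.57 and 12.4 TPM in ND ARM, 14.51 and 11.5 TPM in HFD SM, and 11.4 and 12.5 TPM in HFD ARM. For Mfap5 too only the ND SM pair stood apart, and the libraries of the other 3 groups overlapped in level. Estimated counts were 365 to 1145 for Fbn1 and 33 to 159 for Mfap5.

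Dpt (Entrez 56429, chr1:164796663-164824274) encodes dermatopontin. Its level was 14.7 and 18.9 TPM in ND SM, 30.5 and 44.7 TPM in ND ARM, 18.2 and 20 TPM in HFD SM, and 27.2 and 27.7 TPM in HFD ARM. Both ARM pairs exceeded both SM pairs, and the SM pairs of the 2 diets overlapped. Cilp (Entrez 214425, chr9:65265180-65280614) encodes a secreted protein of the matrix between cells, first known from cartilage. Its level was 1.29 and 0.92 TPM in ND SM, 4.25 and 6.2 TPM in ND ARM, 4.79 and 5.3 TPM in HFD SM, and 6.11 and 7.73 TPM in HFD ARM. Its ND SM pair lay below the rest, and its lowest estimated count there, 28, was the lowest of any of the 9 genes, against a highest count of 279. Fndc1 (Entrez 68655, chr17:7738569-7827340) encodes a secreted protein built largely of fibronectin type III domains. Its level was 0.89 and 0.9 TPM in ND SM, 2.37 and 3.38 TPM in ND ARM, 3.03 and 3.07 TPM in HFD SM, and 2.42 and 2.8 TPM in HFD ARM. Fndc1 was the gene with the lowest TPM of the 9 in every library, and its ND SM pair again lay below the rest.

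Clec3b (Entrez 21922, chr9:123150946-123157432) encodes tetranectin, a secreted lectin that binds plasminogen. Its level was 13.1 and 13.5 TPM in ND SM, 24.5 and 45.2 TPM in ND ARM, 18.8 and 17.7 TPM in HFD SM, and 24.9 and 24.1 TPM in HFD ARM. The ARM pair exceeded the SM pair in each diet, and its 2 ND ARM libraries differed from each other more than the pair of any other group. Pi16 (Entrez 74116, chr17:29318796-29328903) encodes a peptidase inhibitor family member attached to the cell surface. Its level was 2.34 and 2.06 TPM in ND SM, 2.63 and 5.41 TPM in ND ARM, 6.02 and 8.05 TPM in HFD SM, and 5.39 and 5.01 TPM in HFD ARM. The 2 HFD SM libraries were the high ones, and ND ARM library 1 lay nearer to the ND SM libraries than to its own pair. The highest TPM among the 9 genes belonged to Dpt except in ND ARM library 2 and HFD SM library 1, where Clec3b was higher.

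Gfpt2 (Entrez 14584, chr11:49794155-49838620) encodes an enzyme that makes glucosamine 6-phosphate, the entry step of hexosamine synthesis. Its level was 4.57 and 5.45 TPM in ND SM, 15.4 and 23.4 TPM in ND ARM, 9.06 and 9.77 TPM in HFD SM, and 11.9 and 11.6 TPM in HFD ARM. No 2 groups overlapped for Gfpt2, and the ND ARM libraries were the highest. Samd11 (Entrez 231004, chr4:156246966-156256011) encodes a nuclear protein with a SAM domain. Its level was 4.16 and 5.05 TPM in ND SM, 13.1 and 13.9 TPM in ND ARM, 5.8 and 8.06 TPM in HFD SM, and 7.4 and 7.44 TPM in HFD ARM. The ND ARM pair stood well above the other 6 libraries, and the HFD pairs overlapped. Samd11 and Gfpt2, with Dpt and Clec3b, were the 4 genes whose mean level was highest in ND ARM.

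**Figure D1:**
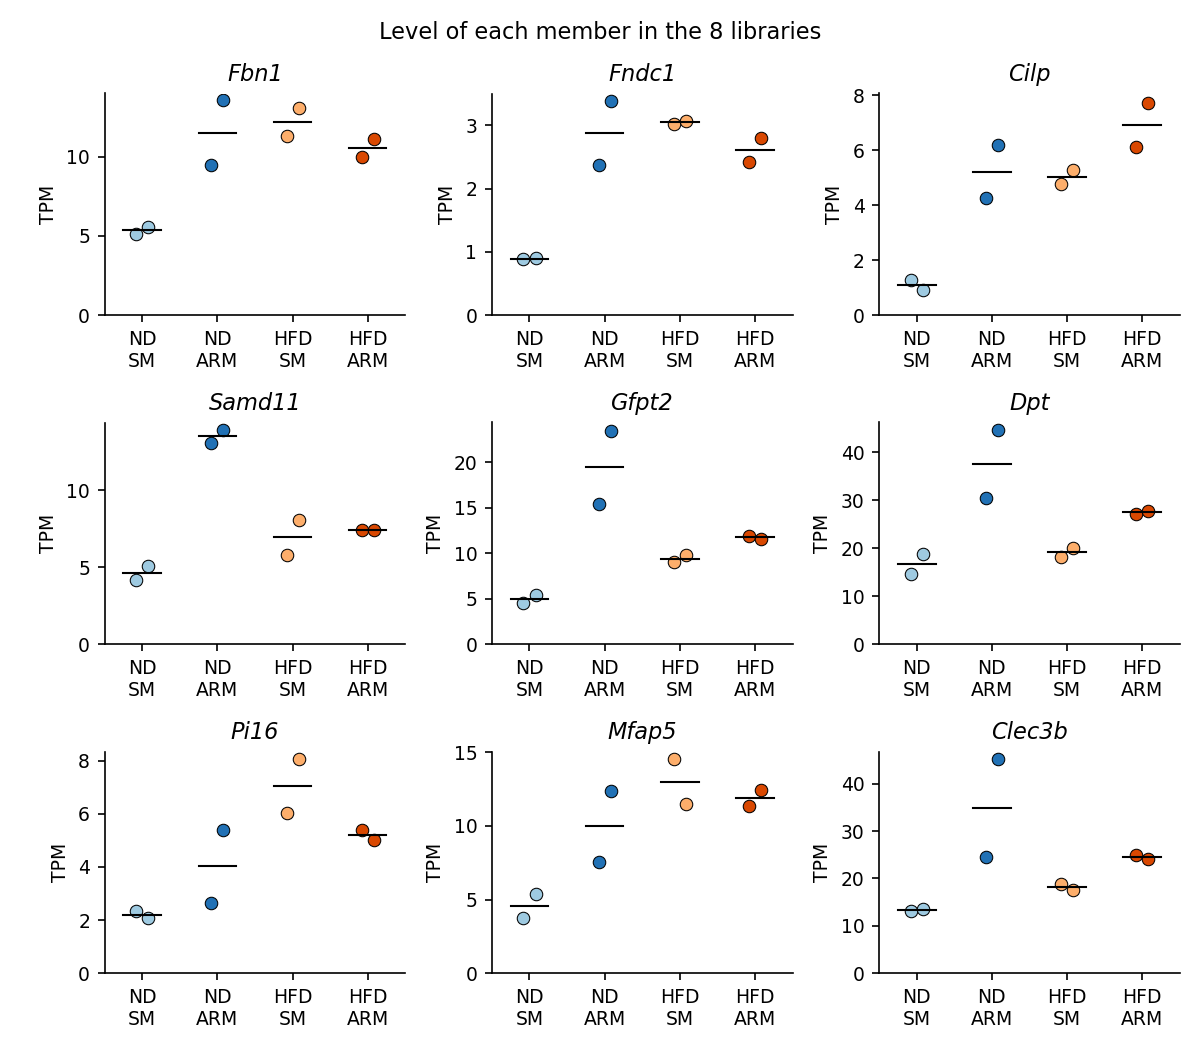
TPM of each of the 9 genes in the 8 libraries, with points for libraries and a bar for the mean of each group. ND SM is the lowest group for every gene, and ND ARM library 2 is the higher of its pair for every gene.

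ND SM had the lowest mean TPM for all 9 genes, and the order of the other 3 groups differed from gene to gene. For Fbn1 the mean was 5.36 ± 0.318 TPM (SD, n = 2) in ND SM, 10.5 ± 0.785 TPM in HFD ARM, 11.5 ± 2.89 TPM in ND ARM and 12.2 ± 1.26 TPM in HFD SM. Neighbours among the last 3 did not differ beyond their spread. Fndc1 had the same order, with 0.895 ± 0.00707 TPM (SD, n = 2) in ND SM and group means of 2.61 to 3.05 TPM in the other groups, where neighbours again lay within their spread. The mean of Mfap5 ran from 4.57 ± 1.18 TPM (SD, n = 2) in ND SM to 13 ± 2.13 TPM in HFD SM, with ND ARM and HFD ARM between them and no difference beyond the spread among those 3 neighbours. Cilp had its highest mean, 6.92 ± 1.15 TPM (SD, n = 2), in HFD ARM, and there too the neighbours among the upper 3 groups lay within their spread. Only neighbours in the order were compared in this way. For Fbn1, Fndc1 and Cilp, HFD SM and HFD ARM were not neighbours, and their libraries did not overlap.

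For Gfpt2 every step in the order exceeded the spread, from 5.01 ± 0.622 TPM (SD, n = 2) in ND SM through 9.41 ± 0.502 TPM in HFD SM and 11.7 ± 0.233 TPM in HFD ARM to 19.4 ± 5.66 TPM in ND ARM. Samd11 had HFD SM and HFD ARM within their spread at 6.93 ± 1.6 and 7.42 ± 0.0283 TPM (SD, n = 2), and ND ARM above both at 13.5 ± 0.587 TPM. Dpt had ND SM and HFD SM within their spread at 16.8 ± 2.96 and 19.1 ± 1.24 TPM (SD, n = 2), followed by HFD ARM at 27.4 ± 0.361 TPM and ND ARM at 37.6 ± 9.99 TPM. Both Dpt and Gfpt2 therefore had ARM above SM in each diet. Clec3b ran from 13.3 ± 0.29 TPM (SD, n = 2) in ND SM and 18.2 ± 0.792 TPM in HFD SM to 24.5 ± 0.552 TPM in HFD ARM and 34.9 ± 14.6 TPM in ND ARM, the last 2 within their spread. Pi16 differed from the rest in that HFD SM, at 7.04 ± 1.44 TPM (SD, n = 2), was the only group beyond the spread of its neighbour.

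The stretches of DNA just before the gene starts are shown as a description. The 9 genes had their lowest mean level in the same group, ND SM, which goes with how they were selected. Shared regulation was not tested. RefSeq promoter sequences (GRCm38.p6) were found for 7 of the 9 genes, and those of Mfap5 and Clec3b were missing. The 250 bases before the annotated start are printed for Cilp (chr9:65264930-65265179, plus strand), Gfpt2 (chr11:49793905-49794154, plus strand) and Dpt (chr1:164796413-164796662, plus strand), in which the start of the sequence record and that of the gene coincide. Capitals mark every match, on either strand, to the letters searched. The TATA box was searched as TATAAA and, in a shorter form, as TATAA. AP-1 sites were searched as TGANTCA, sites of TEAD factors as GGAATG, the promoter element known by its letters as CCAAT, and the element bound by Sp1 as GGGCGG. The windows to print and the shorter form of the TATA box were chosen after the windows had been read.
Cilp: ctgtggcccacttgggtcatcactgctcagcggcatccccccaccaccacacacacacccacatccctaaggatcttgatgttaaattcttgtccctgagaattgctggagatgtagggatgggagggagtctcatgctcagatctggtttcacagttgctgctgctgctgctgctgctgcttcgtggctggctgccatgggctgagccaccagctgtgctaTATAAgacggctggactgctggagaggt
Gfpt2: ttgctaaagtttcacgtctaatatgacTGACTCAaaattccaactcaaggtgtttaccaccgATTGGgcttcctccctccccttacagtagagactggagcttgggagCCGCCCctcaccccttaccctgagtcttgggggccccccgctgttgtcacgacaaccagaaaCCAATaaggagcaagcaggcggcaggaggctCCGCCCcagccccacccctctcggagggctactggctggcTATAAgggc
Dpt: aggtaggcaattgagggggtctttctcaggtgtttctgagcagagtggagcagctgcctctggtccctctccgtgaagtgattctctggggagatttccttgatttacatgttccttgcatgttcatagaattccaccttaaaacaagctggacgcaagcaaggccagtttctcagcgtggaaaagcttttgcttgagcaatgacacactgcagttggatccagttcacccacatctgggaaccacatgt
Cilp held TATAA with its first base at position -28 from the start and Gfpt2 held it at position -9. TATAA, which lies within TATAAA, occurred in 4 of the 7 windows (Samd11, Cilp, Gfpt2 and Fndc1) and in 22.8% of 32851 promoters of the same length. TATAAA itself occurred in 2 of the 7 (Samd11 and Fndc1) and in 12.4% of promoters. The AP-1 letters TGANTCA were found in Gfpt2 alone, as TGACTCA at position -223, and in 6.75% of promoters. CCAAT was found in 2 windows (Gfpt2 and Pi16) against 33.8% of promoters, and GGGCGG in 3 windows (Fbn1, Gfpt2 and Fndc1) against 32.7%. The TEAD letters GGAATG were in 0 of the 7 windows and in 12.6% of promoters. The Dpt window held none of these letters, and a match is a description of the letters only.

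The comparison of ARM with SM asks what sets apart the macrophages that stay with the adipocytes. A gene was called when its fold change exceeded 1.5 with an adjusted p under 0.05 in the quasi-likelihood test of edgeR, adjusted after Benjamini-Hochberg over all genes tested. On ND, 8 of the 9 genes met that call as higher in ARM, beside 3.55% of the 12441 genes tested, and 0 of the 9 met it as lower, beside 0.129%. All 9 had both ARM libraries above both SM libraries, beside 21.2% of genes tested, and 0 had both below, beside 22.8%. The genes were selected on this contrast, so nothing is read from these counts. With ND ARM library 2 left out, all genes called higher numbered 171 in place of 442, and 6 of the 9 met the call. With a replicate block in the fit, which takes libraries of the same number as a pair, 9 of 9 met it, though 2 pairs do not establish pairing.

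On HFD, 0 of the 9 genes met the call as higher, beside 4.46% of 13337 genes tested, and 0 met it as lower, beside 0.292%. The count was also 0 by DESeq2 and by limma on FPKM and 1 of 9 without HFD SM library 1, while 3086 genes of the whole table had an unadjusted p under 0.05 in edgeR. ARM lay above SM without overlap for 4 genes (Cilp, Gfpt2, Dpt and Clec3b), beside 26.3% of genes tested. It lay below without overlap for 3 (Fbn1, Fndc1 and Pi16), beside 26.4%, and the libraries overlapped for Samd11 and Mfap5. The genes were selected on this contrast as well. With HFD ARM library 1 or 2 left out, all genes called higher numbered 282 or 198 in place of 595.

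The log2 fold change of ARM over SM on ND was largest for Cilp, at 2.21 (SE 0.26), a fold change of 4.62. Gfpt2 followed at 1.92 (SE 0.19) and Fndc1 at 1.69 (SE 0.24). Samd11 had a log2 fold change of 1.45 (SE 0.18), and Clec3b had 1.35 (SE 0.25). The values of Gfpt2 and Samd11 lay between those of the matrix genes, which ran from Mfap5 to Cilp. Dpt, Fbn1 and Mfap5 lay close together at 1.13 (SE 0.18), 1.08 (SE 0.15) and 1.07 (SE 0.29). Pi16, the gene that did not meet the call, had the smallest log2 fold change, 0.80 (SE 0.34), and the largest error.

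On HFD the log2 fold changes of the same genes ran from -0.44 (SE 0.18) for Pi16 to 0.51 (SE 0.09) for Dpt. Fbn1, Fndc1 and Mfap5 were also negative, at -0.22 (SE 0.09), -0.23 (SE 0.14) and -0.16 (SE 0.16). Mfap5, whose libraries overlapped, had 0.03 without HFD SM library 1. Samd11 was near 0 at 0.11 (SE 0.14). The positive log2 fold changes of Cilp (0.45, SE 0.13), Clec3b (0.42, SE 0.12) and Gfpt2 (0.31, SE 0.10) were each far below their ND values. The median log2 fold change of the 9 genes was 1.35 on ND and 0.11 on HFD, and over all genes tested it was -0.02 and -0.01.

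**Figure D2:**
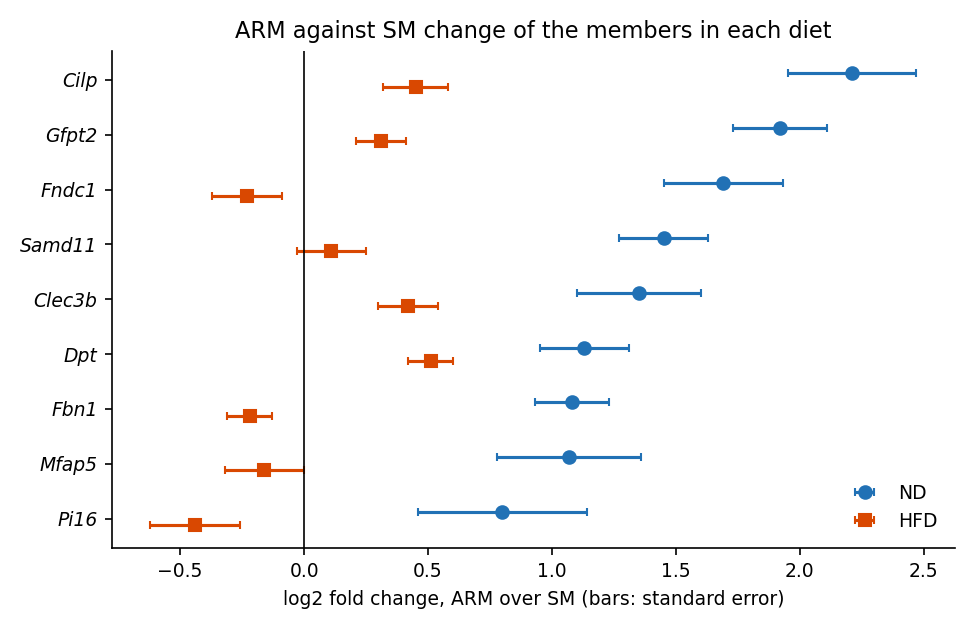
Log2 fold change of ARM over SM for each of the 9 genes on ND (circles) and HFD (squares), with bars for the standard error. Every ND value lies to the right of the HFD value of the same gene.

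The difference between the diets was fitted as the ND log2 change less the HFD log2 change over all 8 libraries, with a call at an adjusted p under 0.05. Of the 9 genes, 5 (Fbn1, Fndc1, Cilp, Samd11 and Gfpt2) met that call as higher, beside 0.0973% of the 13358 genes tested, and 0 met it as lower, beside 0.0674%. They make up 5 of the 13 genes called higher in the whole fit. Since the 9 genes were selected on this difference, the count is a description. Diet and deposited table coincide in this fit. The sources used here do not say whether both tables came from the same processing run. The log2 difference was 1.93 (SE 0.27) for Fndc1, 1.78 (SE 0.31) for Cilp, 1.63 (SE 0.24) for Gfpt2, 1.36 (SE 0.23) for Samd11 and 1.31 (SE 0.19) for Fbn1. The 4 genes that did not meet the call had log2 differences of 1.26 (SE 0.40) for Pi16, 1.25 (SE 0.34) for Mfap5, 0.94 (SE 0.32) for Clec3b and 0.63 (SE 0.23) for Dpt. Pi16 and Mfap5 had differences about as large as Fbn1 with larger errors, while Dpt had the smallest difference of all.

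This count was 7 of 9 with the replicate block, and it depended on single libraries. It was 8 of 9 without ND ARM library 1, 4 of 9 without ND ARM library 2 or without HFD SM library 1, and 1 of 9 without HFD SM library 2. It was 0 of 9 without either ND SM library or either HFD ARM library. Over the whole table, the number of genes called higher was 72 without ND ARM library 1 and 0 or 1 without either ND SM or either HFD ARM library, in place of 13. Without HFD SM library 2 it was 7, and 1017 genes had an unadjusted p under 0.05 with all 8. With 1 library left out, the median log2 difference of the 9 genes ran from 1.02 to 1.51. The genes were selected on this difference in the same libraries, so that range is not read as stability.

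ND ARM library 2 had the higher CPM (a level scaled for library total with TMM factors and not for length) of its pair for all 9 genes, with a ratio of library 2 to library 1 from 1.08 to 2.01 and a median ratio of 1.47. In the other groups library 2 was the higher one for 6 of 9 genes (ND SM), 7 of 9 (HFD SM) and 5 of 9 (HFD ARM). Without ND ARM library 2 the log2 fold change on ND was 1.91 for Cilp, 1.59 for Gfpt2, 1.42 for Fndc1 and 1.40 for Samd11. It was 0.85 for Clec3b, 0.83 for Dpt, 0.80 for Fbn1, 0.71 for Mfap5 and 0.22 for Pi16. The median of the 9 genes was then 0.85. Each of the 9 had its ND value above its HFD value, the direction they were selected for. Their log2 differences ran from 0.32 for Dpt to 1.65 for Fndc1.

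Each diet has a table of its own, so levels are set side by side between diets as values and were not tested. In the ND libraries 8.55 to 9.36% of estimated counts were not whole, and in the HFD libraries 32.3 to 32.9%. The transcript length implied by counts and FPKM was 1.02 to 1.15 times as long on HFD as on ND for the 9 genes, with Clec3b the highest. A longer length lowers the TPM. The same ratio over all genes is not given here, so it is not read as particular to the 9. In SM, the mean TPM on HFD divided by that on ND was 4.57 for Cilp, 3.41 for Fndc1 and 3.2 for Pi16. It was 2.85 for Mfap5, 2.28 for Fbn1, 1.88 for Gfpt2, 1.5 for Samd11 and 1.37 for Clec3b, and for Dpt, whose libraries overlapped, 1.14. The median of these ratios was 2.28, beside 0.949 over 12343 genes, of which 4.94% had a ratio over 2. The ratio in SM over that in ARM makes up the difference the genes were selected on, so nothing is read from these medians. CPM, which does not use length, gave a median ratio of 2.25 for the 9 genes, with 1.52 for Clec3b and 1.2 for Dpt, whose libraries did not overlap on that scale. In ARM the same ratio of HFD to ND was 1.32 for Cilp, 1.29 for Pi16 and 1.2 for Mfap5, and near 1 for Fbn1 (0.917) and Fndc1 (0.908). It was 0.73 for Dpt, 0.703 for Clec3b, 0.604 for Gfpt2 and 0.55 for Samd11. The HFD libraries lay below the ND libraries without overlap for Dpt, Gfpt2 and Samd11. The share of all genes with such a gap between diets is not given here, so nothing is read from it. The median ratio in ARM was 0.908, against 0.934 over all genes. The ratio was farther from 1 on a log scale in SM than in ARM for Fbn1, Fndc1, Cilp, Pi16, Mfap5 and Gfpt2, and farther in ARM for Samd11, Dpt and Clec3b. With CPM it was farther in SM for Clec3b as well.

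Genes that mark fibroblasts were present in the same libraries. The summed level of 18 fibroblast markers was 493 and 605 TPM in ND SM, 1032 and 1510.4 TPM in ND ARM, 693 and 686 TPM in HFD SM, and 955 and 1111 TPM in HFD ARM. Gsn was the most abundant of them in every library and no marker was at 0. The summed level of the 9 genes was 49.9 and 57.7 TPM in ND SM, 109.8 and 168 TPM in ND ARM, 91.5 and 96.5 TPM in HFD SM, and 107 and 109.9 TPM in HFD ARM. As a percentage of the fibroblast sum it was 10.1 and 9.54 in ND SM, 10.6 and 11.1 in ND ARM, 13.2 and 14.1 in HFD SM, and 11.2 and 9.89 in HFD ARM. The share was therefore higher in HFD SM than in any other group, and HFD ARM overlapped both ND groups. This share was computed after the data had been seen. The 9 genes were selected for an ARM over SM rise that was smaller on HFD, so nothing is read from the share. In bulk libraries fewer cells of a type and less RNA per cell cannot be told apart, and the part that fibroblasts carried into the sorted cells have in these results was not tested.

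On ND, 14 of the 18 fibroblast markers were called higher in ARM and 0 lower, with a median log2 fold change of 1.39. On HFD, 10 of 18 were called higher, with a median of 0.63. The HFD count was 8 without HFD ARM library 1 or either HFD SM library, and 2 without HFD ARM library 2. Tcf21, a transcription factor of fibroblasts, rose by a log2 fold change of 1.92 on ND (adjusted p 0.00253, edgeR quasi-likelihood test, Benjamini-Hochberg) and had a value of 0.56 on HFD that did not meet the call. Dcn rose in both diets, by 1.59 (adjusted p 0.000211) and 0.69 (adjusted p 0.00151) in the same quasi-likelihood test of edgeR with Benjamini-Hochberg values. In the difference between diets, edgeR called 0 of the 18 markers, with 13 of 18 at an unadjusted p under 0.05, 1 called by DESeq2 and 7 called without ND ARM library 1. Their median log2 difference was 0.82, and that of all genes tested was 0.03.

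**Figure D3:**
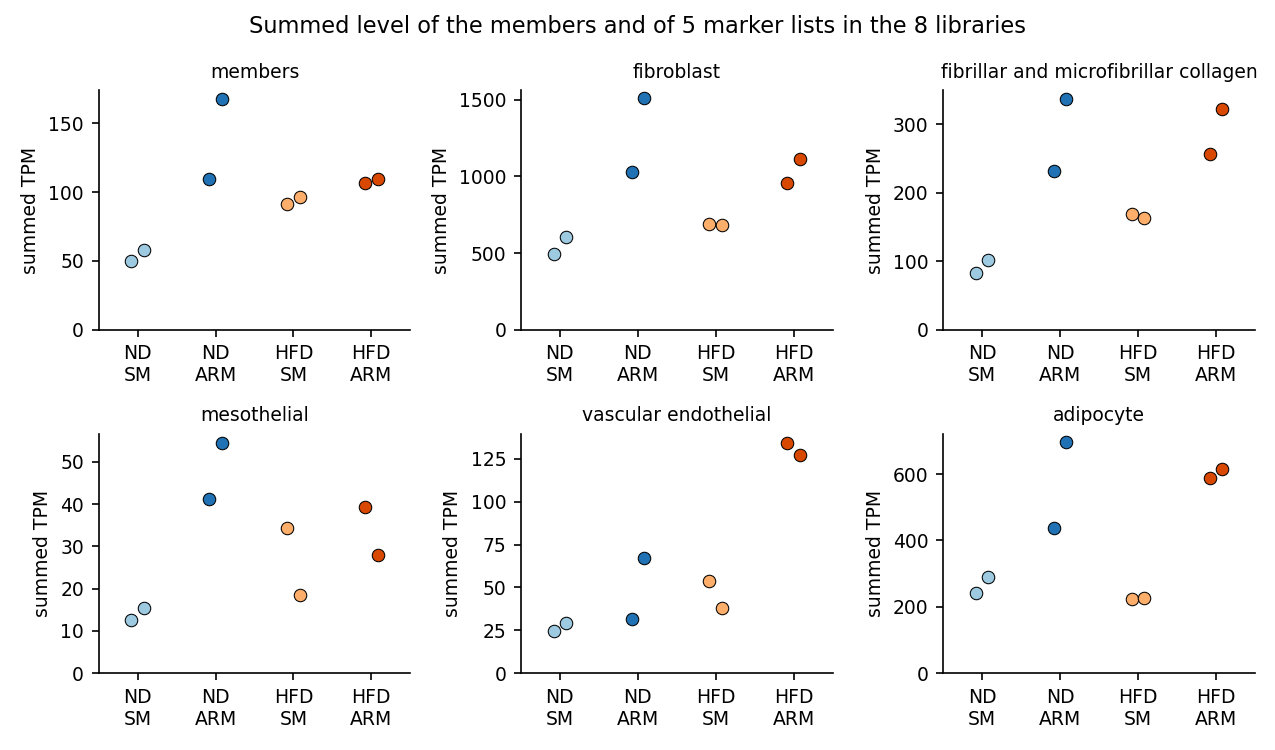
Summed TPM of the 9 genes (labelled members) and of 5 marker lists in the 8 libraries, one point per library. The sum of the 9 genes is nearly level over HFD SM and HFD ARM, while the adipocyte and vascular endothelial sums are well above HFD SM in HFD ARM.

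Pi16 and Dpt belong to the interstitial progenitors of fat, so the markers of that population and of the committed preadipocytes were set beside them. On ND 10 of 16 other interstitial progenitor markers were called higher in ARM and 0 lower (median log2 fold change 1.08), and on HFD 4 of 17 (median 0.34). With 1 library left out the ND count ran from 5, without ND ARM library 2, to 12, and the HFD count from 1, without HFD ARM library 1, to 6. Has1, which makes hyaluronan, rose by 1.93 on ND (adjusted p 0.000311, edgeR quasi-likelihood test, Benjamini-Hochberg) and had a log2 fold change of 0.29 on HFD. Ackr3 had 1.74 and 0.34, Igfbp6 had 1.71 and 0.37, and Efemp1 had 1.54 and 0.33, called on ND and not on HFD in each case. The 4 called on HFD were Ly6c1 (0.92), Ly6a (0.86), Creb5 (0.70) and Cd34 (0.68). Of these, Ly6c1 and Ly6a had a log2 difference between diets of -0.13 each, which did not meet the call and ran from -0.44 to 0.10 and from -0.36 to 0.04 with 1 library left out. Of the committed preadipocyte markers, 5 of 9 were called higher on ND (median 1.10) and 7 of 9 on HFD (median 0.94). Of the 9, 3 had a log2 difference between diets above 0. Of the 5 called on ND, Smoc2 had log2 fold changes of 1.66 on ND and 0.94 on HFD, and F3 had 1.10 and 0.59. The other 3 had larger values on HFD, with 1.41 and 1.5 for Cxcl14, 1.36 and 1.48 for Col15a1, and 0.94 and 1.23 for Sparcl1. With 1 library left out, their log2 difference between diets ran from -0.33 to 0.14, -0.56 to 0.38 and -0.76 to 0.06 in that order. Its sign was thus not the same in every such fit. The median log2 difference between diets was 0.65 for the first list and -0.11 for the second. edgeR called 0 genes of either list in that difference, with 8 of 17 and 2 of 9 at an unadjusted p under 0.05, and DESeq2 called 4 and 0. Without ND ARM library 1, edgeR called 5 of the interstitial progenitor markers. Summed levels of the interstitial progenitor markers were 213 and 231 TPM in ND SM, 312 and 371 TPM in ND ARM, 257 and 239.7 TPM in HFD SM, and 326 and 309 TPM in HFD ARM. Anxa3 was the most abundant of them in every library, with a log2 fold change of 0.01 in each diet, and none was at 0.

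Fbn1 and Mfap5 work within a larger set of elastic fibre and microfibril genes. Of 20 other genes of that set tested, 11 were called higher in ARM on ND (median log2 fold change 1.14) and 4 on HFD (median 0.46), and 0 lower in either. With 1 library left out, the ND count was 5 to 11 and the ND median 0.57 to 1.39. The HFD count was 0 without HFD ARM library 2 and 7 without HFD SM library 1. Mfap4, which binds elastic fibres, rose by 2.76 on ND (adjusted p 0.0273, edgeR quasi-likelihood test, Benjamini-Hochberg). Its estimated counts were only 3 and 4 in ND SM against 12 and 36 in ND ARM. Its value was 1.65 without ND ARM library 2, and it did not meet the call there, without either ND SM library or with DESeq2. The crosslinking enzymes Loxl2 and Lox rose on ND by 1.86 (adjusted p 0.000255) and 1.66 (adjusted p 0.000491) in the same quasi-likelihood test of edgeR with Benjamini-Hochberg values. Lox also met the call on HFD with 0.72, though not by DESeq2 or limma, and Loxl2, with 0.52, did not. On HFD, where Fbn1 and, with all libraries kept, Mfap5 were negative, 4 of the 20 genes had a log2 fold change below 0. The median log2 difference between diets was 0.49 for the set, with 0 genes called by edgeR, 10 of 20 at an unadjusted p under 0.05, 2 called by DESeq2 and 6 called without ND ARM library 1. Mfap2, the paralog of Mfap5, had a log2 fold change of 0.29 on ND and 0.15 on HFD, and Fbn2 was below the low-count filter.

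The partners of Dpt include the small proteoglycans, among them decorin. Of 11 proteoglycan genes tested on ND, 9 were called higher in ARM (median log2 fold change 1.47), and of 12 tested on HFD 5 were (median 0.63). Fmod had the largest change on ND, a log2 fold change of 2 (adjusted p 0.000223, edgeR quasi-likelihood test, Benjamini-Hochberg), and 0.62 on HFD, where it did not meet the call. With 1 library left out the HFD value of Fmod ran from 0.21 to 1.2. Prelp met the call in both diets with 1.72 and 1.41. Fibrillar and microfibrillar collagens were called higher for 10 of 10 genes on ND (median 1.57) and 9 of 11 on HFD (median 0.71). The sum of the 9 genes was 60 and 56.4% of the collagen sum in ND SM, 47.4 and 49.8% in ND ARM, 54.3 and 58.9% in HFD SM, and 41.5 and 34.2% in HFD ARM. Relative to collagens, then, the 9 genes were lower in ARM than in SM in both diets. This comparison was made after the data had been seen, with genes selected on their ARM over SM changes. Nothing is read from it. edgeR called 0 proteoglycans and 0 collagens in the difference between diets, with 5 of 12 and 7 of 11 at an unadjusted p under 0.05, and DESeq2 called 0 and 1.

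Gfpt2 shares its reaction with Gfpt1, whose log2 fold change was 0.07 on ND and 0.12 on HFD, neither meeting the call. Of 14 genes of hexosamine and hyaluronan synthesis, Gfpt1 among them, 2 were called higher on ND and both make hyaluronan. These were Has1 and Has2, the latter at 1.72 (adjusted p 0.00905, edgeR quasi-likelihood test, Benjamini-Hochberg). Has2 did not meet the call without ND ARM library 2 or without ND SM library 1. The median of the 14 was -0.04 on ND and -0.06 on HFD, near that of all genes. On HFD edgeR called 0 of them, with 2 at an unadjusted p under 0.05 and 0 called by DESeq2 or limma, and Has2 had a log2 fold change of -0.29. In the difference between diets edgeR called 0 of the 14, with 3 at an unadjusted p under 0.05 and 1 called by DESeq2. None of the enzymes after Gfpt2 in the hexosamine route was called by edgeR in either diet. For the other genes with close relatives, Cilp2 was below the filter in both tables, Samd7 was listed only on ND and below the filter there, and Clec3a was in neither table.

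Fibrillin microfibrils hold latent TGF-beta, and several of the matrix genes are known to respond to it. Of 17 genes of that pathway, 4 were called higher in ARM on ND (median log2 fold change 0.23) and 2 on HFD (median 0.21). Those on ND were Ccn2 with 1.72 (adjusted p 0.0478) and Tgfb3 with 1.48 (adjusted p 0.00815), along with Tgfbr3 and Thbs1, by the quasi-likelihood test of edgeR, adjusted after Benjamini-Hochberg. Ccn2 had estimated counts of 13 and 5 in ND SM, and its value ran from 1.16 to 2.60 with 1 library left out, never meeting the call then or with DESeq2. Tgfb3 did not meet it by limma, without ND ARM library 2 or without ND SM library 1. Tgfbr3 and Thbs1 were also the 2 called on HFD, at 0.61 and 0.97, the former not by DESeq2 or limma. The median log2 difference between diets was 0.15, and edgeR called 0 of the 17, with 3 at an unadjusted p under 0.05 and 0 called by DESeq2.

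Of the 12 macrophage markers none was called in either diet by edgeR, DESeq2 or limma, with 1 at an unadjusted p under 0.05 on ND and 5 on HFD, and their medians were -0.04 and -0.09. Their summed level was 33265 and 33233 TPM in ND SM, 32826 and 33785 TPM in ND ARM, 30799.6 and 29903 TPM in HFD SM, and 29641 and 28199 TPM in HFD ARM, with Lyz2 the most abundant. Of 11 adipocyte markers tested, 7 were called higher on ND (median 1.47) and 8 on HFD (median 2.51), and Lep was the only marker called in the difference between diets, with a log2 difference of -1.80 (adjusted p 0.038, edgeR quasi-likelihood test, Benjamini-Hochberg). The adipocyte sum was 241 and 291 TPM in ND SM, 437 and 697 TPM in ND ARM, 223 and 227 TPM in HFD SM, and 589.5 and 615 TPM in HFD ARM. Car3 led it except in HFD SM, where Pnpla2 did. For vascular endothelial markers 1 of 11 was called on ND and 10 of 11 on HFD, with medians of 0.78 and 1.49. Their sum, led by Cdh5 or Cldn5, was 24.7 and 29.4 TPM in ND SM, 31.7 and 67.3 TPM in ND ARM, 54 and 38.1 TPM in HFD SM, and 134 and 127 TPM in HFD ARM. No vascular marker was at 0, and of the adipocyte markers only Cidea was, in HFD SM library 2 (it was not listed on ND). The part of these cells in the values of the 9 genes was not tested.

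Of the mesothelial markers, 6 of 9 were called higher in ARM on ND (median log2 fold change 1.70), and on HFD edgeR called 0 of 9 (median 0.16), with 1 at an unadjusted p under 0.05 and 0 called by DESeq2 or limma. Their median log2 difference between diets was 1.49, with edgeR calling 0, 6 of 9 at an unadjusted p under 0.05, and 0 called by DESeq2. Their summed level was 12.5 and 15.5 TPM in ND SM, 41.3 and 54.5 TPM in ND ARM, 34.4 and 18.6 TPM in HFD SM, and 39.3 and 27.9 TPM in HFD ARM, with Upk3b or Krt19 the most abundant. As with the 9 genes, ND SM was the lowest group, but the HFD SM libraries differed more from each other, and no marker was at 0. The part of mesothelial cells in the result was not tested.

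Lymphatic endothelial markers were called higher for 4 of 7 genes on ND (median 1.80) and 3 of 7 on HFD (median 1). Their sum of 871 to 1496 TPM was mostly Lyve1, which macrophages also express, while Ccl21a, Mmrn1 and Reln were at 0 in ND SM library 1. Pericyte and smooth muscle markers were called for 2 of 8 genes on ND and 3 of 9 on HFD, with medians of 1.15 and 0.86 and sums of 14.2 to 66.5 TPM. Cnn1 among them was at 0 in HFD SM library 1 and HFD ARM library 1. Neutrophil and mast cell markers, led by S100a9, summed to 124 and 99.2 TPM in ND SM and to 21 to 71.5 TPM elsewhere. Their sum was thus highest where the 9 genes were lowest, but the members differed. Cxcr2 and Kit had a higher TPM in every HFD library than in either ND SM library. On ND 0 of 7 markers tested were called higher and 1, S100a9, lower, with a log2 fold change of -1.43. On HFD 1 of 6, Kit, was called higher with 1.38, and S100a9 had 0.88 without a call. Ly6g was at 0 in 5 of the 8 libraries. Of the T and NK cell markers Ncr1 was at 0 in 5 libraries, Cd3d in 2, and Cd3g and Nkg7 in 1 each, while Pax5 was at 0 in 1 library and the Schwann markers Sox10 and Ncam1 in 2 each. T and NK cell markers summed to 1.27 to 5.82 TPM, B cell markers to 7.96 to 12.3 TPM and Schwann cell markers to 0.84 to 1.51 TPM, and their part in the values of the 9 genes was not tested.

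**Figure D4:**
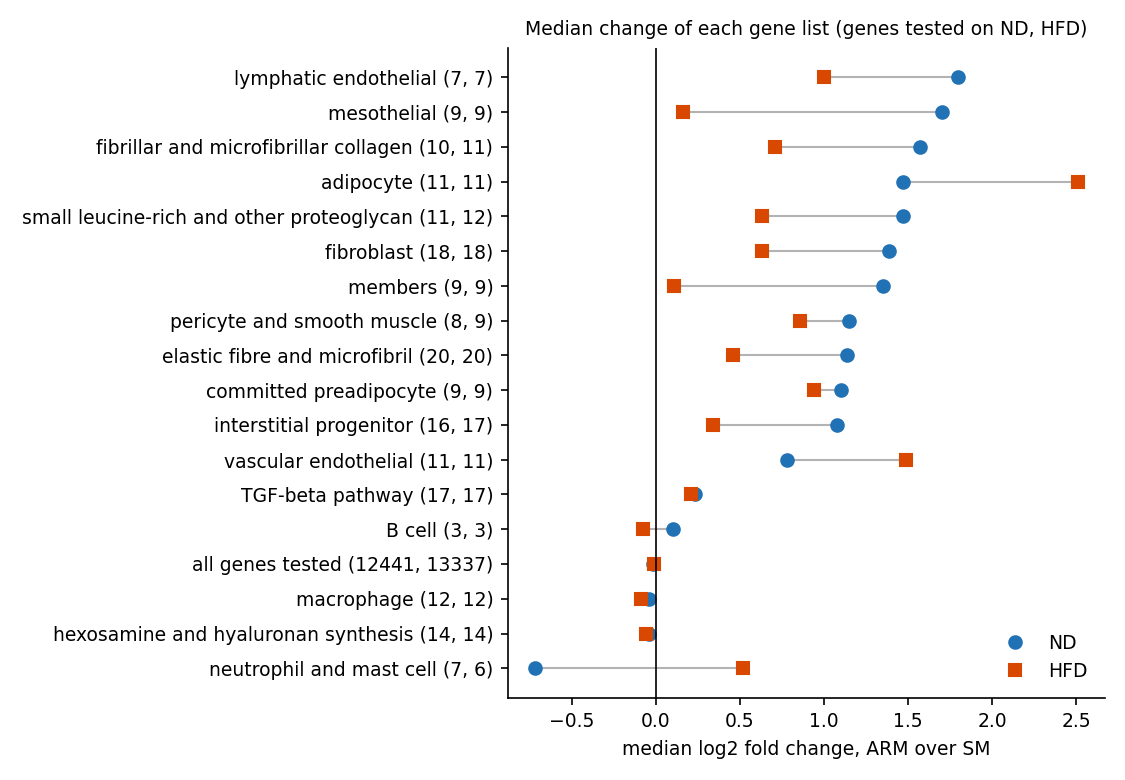
Median log2 fold change of ARM over SM for each gene list on ND (circles) and HFD (squares), with the number of genes tested on each diet in brackets. The mesothelial list and the 9 genes (labelled members), which were selected for it, have the widest drop from ND to HFD, and the neutrophil and mast cell, adipocyte and vascular endothelial lists have a higher median on HFD.

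The genes whose profile over the 8 libraries was nearest to the mean profile of the 9 were found among 12334 others by the root mean square distance of log2(CPM + 1) values, each centred within its diet. The nearest was Flnc at a distance of 0.0816, followed by Cd248 (0.09), Fstl1 (0.1), Adgrd1 (0.104) and Muc16 (0.107). Pcsk6 (0.112), Ntn1 (0.113), Lvrn (0.114), Scara5 (0.131) and Fgf1 (0.133) completed the 10. The median distance over all genes was 0.468, and the 9 genes themselves lay between 0.125 (Fndc1) and 0.304 (Pi16). Of the 9, only Fndc1 and Fbn1 (0.128) were nearer to their common profile than the last of these 10 genes. With TPM in place of CPM, 5 of the 10 were kept. Flnc, Muc16 and Lvrn had low levels in every library, with TPM of at most 1.42. Cd248, a surface protein of fibroblasts and pericytes, had 2.66 and 3.26 TPM in ND SM, 6.58 and 10 TPM in ND ARM, 8.51 and 7.88 TPM in HFD SM, and 7.2 and 8.99 TPM in HFD ARM. Fstl1 had 7.14 and 8.86 TPM in ND SM, 16.2 and 21.4 TPM in ND ARM, 18.2 and 17 TPM in HFD SM, and 19.2 and 22.4 TPM in HFD ARM. In both, as in Fbn1, the ND SM pair alone was low. Others of the 10 differed in this, since Scara5 had 3.93 and 4.93 TPM in ND SM and 4.19 and 3.77 TPM in HFD SM, and Fgf1 had 2.61 and 3.79 TPM in ND SM and 4.29 and 3.55 TPM in HFD SM. Only Scara5 of the 10 was on a marker list, that of the interstitial progenitors. The lists do not hold every marker of a cell type, so the 10 are not assigned to one.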

How the data were processed

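The authors deposited 1 table per diet with estimated counts, FPKM and TPM for each library, aligned to mm10 according to the submitters' processing notes; the aligner and counter versions were not given in the sources used here. The deposited estimated counts, which need not be whole, were rounded and fitted in edgeR 4.0.16 (R 4.3.3) with TMM normalization, the filterByExpr low-count filter and the quasi-likelihood test, with Benjamini-Hochberg adjustment over all genes tested. Each diet was fitted by itself, and the difference between diets on the genes of both tables. The deposited TPM gave the levels. The deposited FPKM, after log2 with a pseudocount of 1 or 0.1, was used for limma 3.58.1. DESeq2 1.42.0, other normalizations and filters, the threshold of the study's methods and leaving out each library were the alternatives. Summaries and plots used Python 3.11.15 and matplotlib 3.10.9. The scripts were first run on simulated data with known changes.

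The 9 genes and the gene lists were chosen with earlier results of these data known. Genes named in the text by rule were the 9 genes, paralogs, and the 10 nearest genes by profile. The rule also took up to 6 of each list with the highest TPM in ND ARM. It further took up to 4 called genes of each list with the largest change in each diet. Cidea, Cnn1, Ncr1, Cd3g and Ly6g fell outside this rule and were named because they had no estimated counts in some library. Ccn2 and Oga were matched by Entrez identifier, since the tables list them under older symbols. The letters TATAA, the promoter windows printed, and the shares of the fibroblast and collagen sums were added after the data had been seen.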

Additional observations from a re-analysis of the deposited data

Results flagged for a closer look

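Of the genes named in the text, 6 met the call in the difference between diets, that is, an adjusted p under 0.05 for the ND change of ARM over SM less the HFD change. Of the 9 genes described, these were Fndc1 with a log2 difference of 1.93, Cilp with 1.78, Gfpt2 with 1.63, Samd11 with 1.36 and Fbn1 with 1.31. They had been selected on this very difference, so their values are a description. The adipocyte hormone gene Lep had a log2 difference of -1.80, a larger rise on HFD than on ND, and did not meet the call without either ND SM library or any 1 of the 4 HFD libraries. The cause of these differences was not tested.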

How the results depend on the processing

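No gene named that met the call changed sign under any alternative. Some values that did not meet it changed sign. For example, on HFD the log2 fold change became 0.03 for Mfap5 and -0.03 for Samd11 without HFD SM library 1, and -0.33 for Tcf21 without HFD ARM library 2. For the 9 genes 339 values under alternatives stayed within the spread between libraries. The other 3 came from limma with a pseudocount of 1, where the ND log2 fold change was 1.17 for Cilp, 0.72 for Fndc1 and 1.20 for Samd11. A larger pseudocount shrinks changes at low levels. The 339 values include fits with a library left out, which are set against the spread of those same libraries. That count is therefore not read as stability. Of the genes of the lists, 4949 values kept their side of the threshold, 188 passed it only under the alternative and 198 only in the main setting.

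On ND, genes called higher (442) became 273 with DESeq2, 208 with limma at a pseudocount of 0.1 and 202 at 1. They became 794 with the threshold of the study's methods, taken here as unadjusted p, and 719 with a replicate block. Genes called lower (16) became 7 with DESeq2, 94 with the methods threshold, 40 with no low-count filter and 67 with the block. On HFD, genes called higher (595) became 382 and 319 with limma at 0.1 and 1, 922 with the methods threshold and 167 with no filter. Genes called lower (39) became 23, 12, 95 and 14 in that order. In the difference between diets, genes called higher (13) became 62 with DESeq2, 26 with no filter and 134 with the block, and genes called lower (9) became 32, 15 and 53. The limma fits differ from edgeR in tool, measure and filter at once, and apart from the threshold the cause was not tested. The study's methods name no adjustment of p, and its figure legends give a false discovery rate under 0.05.

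The replicate block pairs ARM and SM libraries by number. The deviations of paired libraries correlated across genes at 0.279 on ND and 0.0175 on HFD, and 2 pairs do not establish pairing.

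With a library left out, genes called higher ran from 171 to 617 on ND, 198 to 587 on HFD and 0 to 72 in the difference. Genes called lower ran from 15 to 44, 16 to 58 and 0 to 30. The median log2 change of the 9 genes ran from 0.85 to 1.51 on ND and 0.03 to 0.28 on HFD, and the difference from 1.02 to 1.51. The number of the 9 called ran from 6 to 9 on ND and 0 to 1 on HFD. On ND it was 7 with DESeq2 and 6 with limma at either pseudocount. Of the 10 genes nearest in profile, 5 stayed on the TPM scale, and the cause was not tested.

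Depth limits Cilp, Pi16, Mfap5 and Fndc1 most, with lowest estimated counts of 28, 33, 33 and 38. The coefficient of biological variation was 8.61% on ND and 5.55% on HFD, from 2 libraries a group.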
